A study of Sus scrofa with 4 samples.

Results

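PDZRN3, PDZRN4, LNX1 and LNX2 form the LNX family of E3 ubiquitin ligases that carry a RING domain and PDZ domains, and their levels were read in sorted epidermal cells of the pig. These are 4 of the 29837 named genes counted in the series, and all 4 were among the 15980 genes that passed a filter on low counts. PDZRN3 and PDZRN4 were chosen by their opposite differences between the 2 sorted populations, with LNX1 and LNX2 added as their relatives, so the levels of the 4 genes in these populations are given as a description, with no test. The libraries came from 2 juvenile pigs, 88R and 95R. Both carried H2B-GFP, a histone joined to a green fluorescent protein, knocked into 1 allele of LGR5. That gene encodes a receptor that potentiates WNT signalling when bound to R-spondin, and it marks hair follicle stem cells. The animals were derived from edited, genotyped fibroblast colonies by somatic cell nuclear transfer or were bred from such pigs. Hair and epidermis were separated from the dermis with dispase, dissociated with trypsin and sorted as live cells, and poly(A) RNA of the bright cells (LGR5-high) and of the cells without GFP (LGR5-negative) was sequenced, 1 library of each population from each pig. Both populations carried the reporter allele, LGR5-negative was the rest of a mixed epidermal suspension and not one cell type, and a population of intermediate GFP was not analysed here. In sorted bulk samples, fewer cells of a type and less RNA per cell cannot be told apart.

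Proteins of this family hold a target with their PDZ domains, which grip the tails of membrane and junction proteins, and use the RING domain to pass ubiquitin to it, which can mark it for removal or move it to another compartment. LNX1 and LNX2, the ligands of NUMB protein X, are named for binding NUMB, an adaptor that restrains Notch signalling, and Notch in turn promotes the differentiation of keratinocytes in the epidermis. PDZRN3, also called LNX3, is known for acting on MuSK, the receptor kinase of the neuromuscular junction, and on Dishevelled-dependent WNT signalling that orients endothelial cells. PDZRN4, also called LNX4, is the least studied of the 4.

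The libraries held 30890232 to 32598670 counts each. Levels are given as CPM, a count relative to the library's total after correction by TMM factors from edgeR (trimmed mean of M-values). On this scale 3 counts correspond to 0.0873 to 0.105 CPM. LGR5 itself followed the sort, with 4551 and 6224 counts in LGR5-high (88R, 95R) and 36 and 109 in LGR5-negative. The list of 10 hair follicle stem cell markers includes LGR5, whose reporter defined the sort. Of these 10, 8 were called higher in LGR5-high and 0 lower in edgeR's quasi-likelihood test, at a Benjamini-Hochberg adjusted p under 0.05. That test called 22.7% of the 15980 genes higher and 22% lower. Of 8 tested markers of suprabasal keratinocytes, the differentiating layers above the basal one, 0 were higher and 7 lower. LORICRIN and FLG, also on that list, were not among the named genes counted. KRT14, a keratin of basal cells, was not analysed here.

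PDZRN3 was high in both LGR5-high libraries and low, though well above 3 counts, in both LGR5-negative libraries. It had 28575 counts in LGR5-high of pig 88R and 25964 in LGR5-high of pig 95R. In LGR5-negative it had 155 counts (88R) and 193 counts (95R). The corresponding levels were 831 and 786 CPM in LGR5-high against 5.44 and 6.39 CPM in LGR5-negative. LGR5-high averaged 809 ± 32.0 CPM (SD, n = 2 pigs) and LGR5-negative 5.91 ± 0.670 CPM (SD, n = 2), a 137-fold difference. The log2 fold change of LGR5-high over LGR5-negative was 7.09 with a standard error of 0.128, and it was 7.24 within pig 88R and 6.93 within pig 95R. This was the increase of rank 10 among the 15181 tested genes with more than 3 counts in every library, and of rank 58 among all 15980 tested genes, which include those nearly absent from LGR5-negative.

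PDZRN4 showed the opposite pattern. It had 5718 counts in LGR5-negative of pig 88R and 4183 in LGR5-negative of pig 95R. In LGR5-high it had 511 counts (88R) and 305 counts (95R). The levels were 201 and 138 CPM in LGR5-negative and 14.9 and 9.23 CPM in LGR5-high, and pig 88R had the higher level in both. LGR5-negative averaged 170 ± 44.0 CPM (SD, n = 2) and LGR5-high 12.0 ± 3.98 CPM (SD, n = 2), 14.1-fold higher in LGR5-negative. The log2 fold change was -3.81 with a standard error of 0.288, and it was -3.75 within pig 88R and -3.90 within pig 95R. This was the decrease of rank 25 among the same 15181 genes and of rank 55 among all 15980. Leaving out 1 library at a time kept the log2 fold change of PDZRN4 between -4.21 and -3.51.

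The pair can also be read as the ratio of their counts, whose change between 2 libraries depends neither on the length of either gene nor on the scaling between libraries. From LGR5-negative to LGR5-high, the ratio of PDZRN3 to PDZRN4 counts rose 2063-fold in pig 88R and 1845-fold in pig 95R, or by 11.01 and 10.85 on the log2 scale. The plot of the 4 genes by library shows this crossing.

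**Figure D1:**
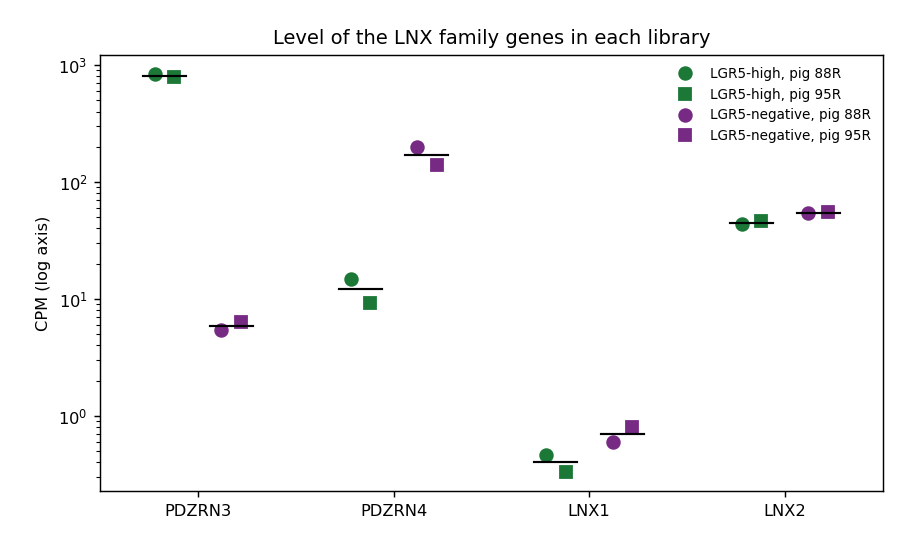
Level of each LNX family gene in CPM (logarithmic axis) in each of the 4 libraries, with green for LGR5-high, purple for LGR5-negative, circles for pig 88R, squares for pig 95R and black lines for the mean of the 2 pigs. PDZRN3 stands at 831 and 786 CPM in LGR5-high and at 5.44 and 6.39 CPM in LGR5-negative, PDZRN4 stands the other way round, and LNX2 differs little between the populations.

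LNX2, a NUMB-binding member, was present at similar levels in all 4 libraries. It had 1506 and 1517 counts in LGR5-high (88R, 95R), and 1556 and 1659 in LGR5-negative. The levels were 43.8 and 45.9 CPM in LGR5-high and 54.6 and 54.9 CPM in LGR5-negative, lower in LGR5-high in both pigs. The mean was 44.9 ± 1.49 CPM (SD, n = 2) against 54.8 ± 0.210 CPM (SD, n = 2). The log2 fold change was -0.29 with a standard error of 0.0864, at -0.32 within pig 88R and -0.26 within pig 95R. When libraries were scaled by their size only, in place of TMM, it was -0.06, while the median of all tested genes went from 0.02 to 0.24. Relative to that median LNX2 was at -0.30 under both scalings.

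LNX1, whose protein gave the family its name, was close to the limit of these libraries. It had 16 and 11 counts in LGR5-high (88R, 95R), and 17 and 24 in LGR5-negative, or 0.465 and 0.333 CPM against 0.597 and 0.794 CPM. LGR5-high averaged 0.399 ± 0.0937 CPM (SD, n = 2) and LGR5-negative 0.695 ± 0.140 CPM (SD, n = 2). The log2 fold change of -0.79 had a standard error of 0.420, with -0.32 within 88R and -1.11 within 95R. Summed over the pigs, 27 counts in LGR5-high stood against 41 in LGR5-negative, a ratio of 0.574 after scaling, with a 95% interval of 0.339 to 0.955 that covers counting error only. Without LGR5-high of pig 95R the log2 fold change was -0.57, and without LGR5-high of pig 88R it was -1.06. At this depth the size of the LNX1 difference was not settled.

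The choice of the genes did not use the difference between the pigs, so that difference was tested. In edgeR's quasi-likelihood test with population and pig in the model, 1.78% of the 15980 genes were called higher in pig 95R and 2.52% lower. PDZRN4 was the only one of the 4 genes to pass. It was lower in pig 95R by a log2 difference of -0.60 with a standard error of 0.0974 (adjusted p = 0.00145 by edgeR's quasi-likelihood test), lower in both populations. Over 6 other scalings, filters and tools the difference of PDZRN4 lay between -0.62 and -0.58, with adjusted p-values between 5.78e-07 and 0.0282 from edgeR, DESeq2 or limma-voom. The log2 differences between the pigs were 0.02 for PDZRN3, 0.02 for LNX1 and 0.04 for LNX2 in edgeR's test, with adjusted p-values of 0.968, 0.994 and 0.937. The summed level of 7 immune cell markers was also lower in pig 95R, at 30.8 CPM against 85.9 CPM in LGR5-negative and 7.26 CPM against 13.5 CPM in LGR5-high. In LGR5-negative this sum rested on the lysozyme gene LYZ, with 2091 counts in pig 88R and 256 in pig 95R, whereas PTPRC had 55 and 86 counts and CD207 had 74 and 172. Other lists moved with the pig as well. The stem cell marker sum was higher in pig 95R, at 4255 CPM against 2989 CPM in LGR5-high and 1566 CPM against 905 CPM in LGR5-negative. Most of this difference was KRT15, with 77482 counts in pig 95R and 38359 in pig 88R in LGR5-high, and 40007 and 20376 in LGR5-negative. In LGR5-high, SOX9, LHX2, NFATC1, CD34 and LRIG1 were lower in pig 95R, and LGR5, LGR6, TBX1 and TCF7L1 were higher. Of the 10 markers, 3 passed the test between the pigs. LGR5 itself was higher in pig 95R by a log2 difference of 0.71 (adjusted p = 0.00799 by edgeR). In LGR5-negative the melanocyte sum was 261 CPM in pig 95R against 85.0 CPM in pig 88R, and the fibroblast sum was 373 CPM against 679 CPM. The suprabasal markers summed to 57772 CPM in LGR5-negative of pig 95R and 66921 CPM in that of pig 88R. The part of any of these in the difference of PDZRN4 was not tested. In this test the 2 populations of a pig stood as its replicates. Its p-value therefore measures the spread between these libraries and not that among animals. Whether a pig's PDZRN4 level goes with litter, body site or hair cycle was not tested.

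The level left in the low population is given beside that of the listed markers of each side of the sort. Since PDZRN3 and PDZRN4 were selected on their differences, their low shares are a description. In LGR5-negative, PDZRN3 stood at 0.654% of its LGR5-high level in pig 88R and at 0.813% in pig 95R. The corresponding shares were 0.954% and 1.91% for LGR5, 0.984% and 1.47% for LHX2, 1.03% and 1.18% for TBX1, and 3.78% and 5.76% for SOX9. The other markers of the stem cell list stood at 4.50% and 3.61% for CD34, 12.0% and 14.6% for LGR6, 16.4% and 12.6% for TCF7L1, 44.3% and 61.8% for LRIG1, 64.1% and 56.4% for KRT15, and 71.9% and 106.9% for NFATC1. In LGR5-high, PDZRN4 stood at 7.41% of its LGR5-negative level in pig 88R and at 6.67% in pig 95R. KRT1 and KRT10, the keratin pair of suprabasal cells, stood at 8.43% and 8.54% and at 8.93% and 9.62%. KRTDAP and DSC1, which also mark differentiating keratinocytes, stood at 10.1% and 11.4% and at 11.5% and 10.1%. PTPRC, which marks leukocytes, stood at 10.6% and 4.25%, and CD207, the langerin gene of Langerhans cells, at 10.1% and 3.72%. In LGR5-high these rested on 7 and 4 counts of PTPRC and 9 and 7 of CD207, beside 511 and 305 of PDZRN4. At such counts the difference of these 2 shares between the pigs was not settled. The rest of the suprabasal list was left at larger shares, with 11.6% and 18.9% for CALML5, 32.5% and 36.5% for SBSN, 48.3% and 42.9% for the desmosomal cadherin DSG1, and 47.9% and 183.9% for IVL, which was the other way in pig 95R. Of the rest of the immune list, LYZ stood at 9.63% and 16.1%, CD14 at 47.4% and 29.3%, ITGAX at 108.1% and 53.5% and CD79B at 652.8% and 594.6%, while CD3E had at most 2 counts in any library.

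**Figure D2:**
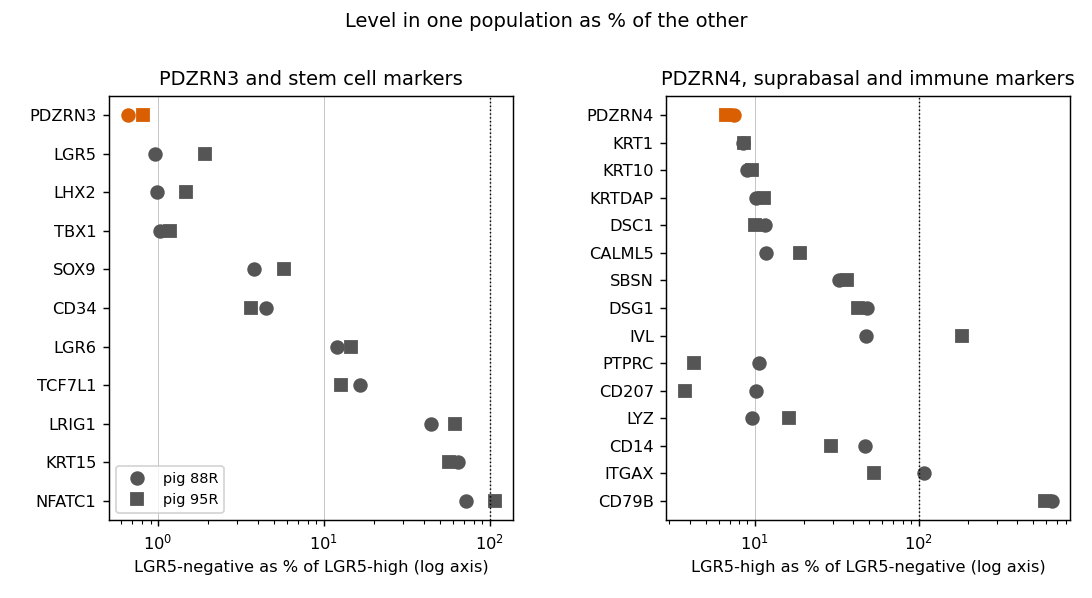
CPM in one population as a percentage of CPM in the other (logarithmic axis, dotted line at equal levels), for pig 88R (circles) and pig 95R (squares), with LGR5-negative over LGR5-high for PDZRN3 and the 10 stem cell markers (left) and LGR5-high over LGR5-negative for PDZRN4, the 8 suprabasal markers and the immune markers other than CD3E (right). PDZRN3 (orange) stands at 0.654% and 0.813% and PDZRN4 (orange) at 7.41% and 6.67%, while the markers of each list spread up to and past equal levels.

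Markers of other cell types moved with the populations as well. The counts below stand beside 22.7% of all tested genes higher and 22% lower. With the pig as a replicate block these shares were 28.5% and 27.2%. Of the tested endothelial markers 0 were higher and 5 of 6 lower in LGR5-high, with sums of 6.43 and 7.60 CPM in LGR5-high and 21.5 and 22.0 CPM in LGR5-negative. Of the immune markers 1 of 6 was higher and 3 were lower, and of the melanocyte markers 0 were higher and 5 of 7 lower, or 1 higher (MITF) and 6 lower in the fit with a replicate block for the pig. The melanocyte sums were 62.5 and 62.6 CPM in LGR5-high and 85.0 and 261 CPM in LGR5-negative of pigs 88R and 95R. The fibroblast list was divided, with 4 of 9 higher, among them COL1A1 and COL1A2, and 4 lower, among them PDGFRA and LUM, and its sums were 1255 and 1500 CPM in LGR5-high and 679 and 373 CPM in LGR5-negative. All 5 tested smooth muscle and pericyte markers were higher, with sums of 288 and 303 CPM against 122 and 115 CPM that were mostly CSPG4, while the muscle filament gene DES had at most 2 counts in any library. The Schwann cell list had 2 of 5 higher and 2 lower, with sums of 260 and 248 CPM against 335 and 329 CPM, and CDH19 was at 0 in all 4 libraries. The markers of skeletal muscle, where MuSK acts, summed to at most 0.424 CPM, none had enough counts to be tested, and MYOG, MYF5 and ACTA1 were at 0 in all libraries. PDZRN3 therefore moved in the direction of the stem cell and smooth muscle lists and of the fibroblast sum, though the fibroblast list was divided. PDZRN4 moved in that of the suprabasal, endothelial and melanocyte lists and of the immune sum, though 1 immune marker, CD79B, was higher in LGR5-high. The part of these cell types in the 2 differences was not tested.

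Of 10 genes whose proteins are known to bind or be targets of the family, 9 were tested, and 1 was higher and 3 were lower in LGR5-high, beside 22.7% and 22% of all genes. The median log2 fold change of the 9 was -0.24, against 0.02 over all tested genes. NUMB, the adaptor that names LNX1 and LNX2, had 4138 and 3906 counts in LGR5-high and 2189 and 2152 in LGR5-negative. NUMB rose from 74.0 ± 3.96 CPM (SD, n = 2) to 119 ± 1.51 CPM (SD, n = 2), a log2 fold change of 0.69 (standard error 0.0806, adjusted p = 0.00149 by edgeR's quasi-likelihood test). NUMBL, its close relative, moved the other way. It had 1048 and 783 counts in LGR5-high and 2088 and 1483 in LGR5-negative, and it fell from 61.2 ± 17.1 CPM (SD, n = 2) to 27.1 ± 4.80 CPM (SD, n = 2), a log2 fold change of -1.17 (standard error 0.222, adjusted p = 0.00847 by edgeR). Without LGR5-high of pig 95R, NUMBL no longer passed edgeR's test, at -1.001 (adjusted p = 0.0546), and leaving out each library gave -1.44 to -0.86.

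Among the junction proteins of the same list, CLDN1, the claudin of the epidermal barrier, fell from 282 ± 17.6 CPM (SD, n = 2) to 190 ± 8.21 CPM (SD, n = 2), a log2 fold change of -0.57 (adjusted p = 0.00387 by edgeR's quasi-likelihood test). CXADR, the coxsackievirus and adenovirus receptor, was lower by a log2 fold change of -0.24 (adjusted p = 0.0462 by edgeR), and this call was lost without any one of the 4 libraries, with values from -0.28 to -0.21. IGSF5, a junctional adhesion protein, had a log2 fold change of -0.45 and an adjusted p of 0.186 in edgeR's test. The receptor kinase ERBB2 had a log2 fold change of -0.14 (adjusted p = 0.185 by edgeR), which was 0.08 with library size only. PBK, a kinase of dividing cells, had 0.93 (adjusted p = 0.0582 by edgeR), and it passed with the pig as a replicate block (adjusted p = 2.65e-05) and without LGR5-negative of pig 88R, at 1.45, whereas it was at 0.53 without LGR5-negative of pig 95R. The PDZRN3 partners stood at 0.15 for DVL3, a Dishevelled protein (adjusted p = 0.343 by edgeR), and at -0.36 for EFNB1, an ephrin (adjusted p = 0.0623 by edgeR). EFNB1 passed with the replicate block (adjusted p = 0.00350 by edgeR) and in DESeq2 (adjusted p = 0.0389). It was at -0.51 without LGR5-negative of pig 95R and at -0.20 without LGR5-negative of pig 88R. MUSK had 1 count in each LGR5-high library and 0 in each LGR5-negative library, so the best known target of PDZRN3 was not measurable here. With the replicate block, 28.5% of all genes were higher and 27.2% lower, and 2 and 4 of the 9 tested partners.

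Of 21 genes of NUMB and Notch signalling, 6 were higher and 4 lower, beside 22.7% and 22% of all genes. Their median log2 fold change was 0.22. With the replicate block 9 were higher and 5 lower, beside 28.5% and 27.2% of all genes. The 3 with the largest increase were HEYL, HEY1 and HEY2, genes of transcriptional repressors. HEYL had 558 and 481 counts in LGR5-high and 57 and 66 in LGR5-negative, and rose by a log2 fold change of 2.88 (standard error 0.176, adjusted p = 0.000185 by edgeR's quasi-likelihood test). HEY1 rose by 1.54 and HEY2 by 2.43 on the log2 scale, with adjusted p-values of 0.00344 and 0.0173 from edgeR. HEY2 had 191 and 165 counts against 11 and 47, and it did not pass without LGR5-high of pig 88R (2.35) or of pig 95R (2.51). It passed without LGR5-negative of pig 88R, at 1.75, and without that of pig 95R, at 3.75, so its size rested on which LGR5-negative library was used. On the lower side, the ligand gene DLL1 went from 101 ± 14.2 CPM (SD, n = 2) in LGR5-negative to 24.8 ± 0.153 CPM (SD, n = 2) in LGR5-high, a log2 fold change of -2.03 (adjusted p = 0.000171 by edgeR). The receptor gene NOTCH3 fell by 0.67 on the log2 scale (adjusted p = 0.00403 by edgeR). Without LGR5-high of pig 95R, 2 genes of the list were lower in place of 4.

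WNT planar cell polarity is the branch of WNT signalling in which PDZRN3 is known. Of 23 tested genes of this branch, 10 were higher and 4 lower, beside 22.7% and 22% of all genes. CELSR1, also on the list, was not among the named genes counted. Their median log2 fold change was 0.18. With the replicate block 10 were higher and 5 lower, beside 28.5% and 27.2% of all genes. WNT11, a ligand of this branch, had 2462 and 3388 counts in LGR5-high and 26 and 31 in LGR5-negative. It rose by a log2 fold change of 6.48 (standard error 0.253, adjusted p = 6.62e-05 by edgeR's quasi-likelihood test), from 0.969 to 87.1 mean CPM. ROR1 and ROR2, receptor kinases for WNT ligands, rose by 3.72 and 3.64 on the log2 scale, with adjusted p-values of 0.00112 and 0.000185 from edgeR. ROR1 was thinly covered, with 92 and 138 counts against 7 and 8. WNT5B, another ligand, fell by 1.66 and the formin DAAM1, which acts below Dishevelled, by 0.52, with adjusted p-values of 0.000915 and 0.00427 from edgeR. The ligand gene WNT5A was called higher, at 1.89. Core polarity genes called higher were PRICKLE2 at 3.16, FZD3 at 3.14, CELSR2 at 2.72, VANGL2 at 2.69 and PRICKLE1 at 2.59. CELSR3 at 0.55, FZD6 at 0.18, DVL2 at 0.17, DVL3 at 0.15 and VANGL1 at 0.12 were not called. DVL1 was called lower, at -0.29. PRICKLE3, a core polarity gene, was lower by -0.36 (adjusted p = 0.0298 by edgeR) and did not pass without LGR5-high of either pig, at -0.36 in both fits, or without LGR5-negative of pig 88R, at -0.28. The number of lower genes was 2 without LGR5-high of either pig.

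Of the 10 agrin and MuSK genes of the neuromuscular pathway in which PDZRN3 is known, 5 had enough counts to be tested. AGRN, the gene of agrin itself, stood at 633 ± 32.5 CPM (SD, n = 2) in LGR5-high. In LGR5-negative AGRN stood at 541 ± 38.2 CPM (SD, n = 2). Its log2 fold change of 0.23 did not pass in edgeR's main fit (adjusted p = 0.0942). AGRN passed when the pig was fitted as a block (adjusted p = 0.0346 by edgeR). With library size only, edgeR called 3 of the 5 tested genes higher, against 2 in the main fit. RAPSN, which anchors acetylcholine receptors, had 73 and 103 counts in LGR5-high and 29 and 28 in LGR5-negative, a log2 fold change of 1.43 (adjusted p = 0.0166 by edgeR's quasi-likelihood test). CHRNB1, a receptor subunit, rose by 0.46 on the log2 scale (adjusted p = 0.0431 by edgeR). LRP4, a co-receptor of MuSK that other tissues also express, fell from 319 ± 10.2 CPM (SD, n = 2) to 63.4 ± 1.49 CPM (SD, n = 2), a log2 fold change of -2.33 (adjusted p = 5.65e-05 by edgeR). The median of the 5 tested genes was 0.23. With the replicate block 3 were higher and 1 lower, beside 28.5% and 27.2% of all genes. RAPSN did not pass without LGR5-high of pig 95R (1.13), and CHRNB1 did not pass without LGR5-high of pig 88R (0.55), LGR5-high of pig 95R (0.36) or LGR5-negative of pig 95R (0.35).

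Other scaffold genes with PDZ domains served as a wider frame for the domain that the 4 ligases share. Of 42 tested, 11 were higher and 13 lower, beside 22.7% and 22% of all genes, with a median log2 fold change of -0.06. PALS1, NHERF1 and NHERF2, also on the list, were not among the named genes counted. With the replicate block 12 were higher and 15 lower, beside 28.5% and 27.2% of all genes. PDLIM3, which joins a PDZ domain to a LIM domain at actin fibres, had 2806 and 2465 counts in LGR5-high and 73 and 71 in LGR5-negative, a log2 fold change of 4.99 (standard error 0.126, adjusted p = 3.91e-05 by edgeR's quasi-likelihood test). PDLIM7 of the same group rose by 3.31 and the syntrophin gene SNTB1 by 2.31 on the log2 scale, with adjusted p-values of 6.28e-05 and 0.000632 from edgeR. On the lower side stood GIPC2, an adaptor, at -2.61, the cell polarity gene PARD6B at -2.02 and PDZD2 at -1.84, with adjusted p-values of 0.000266, 0.000319 and 8.20e-05 from edgeR. The plot of the lists shows these values gene by gene.

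**Figure D3:**
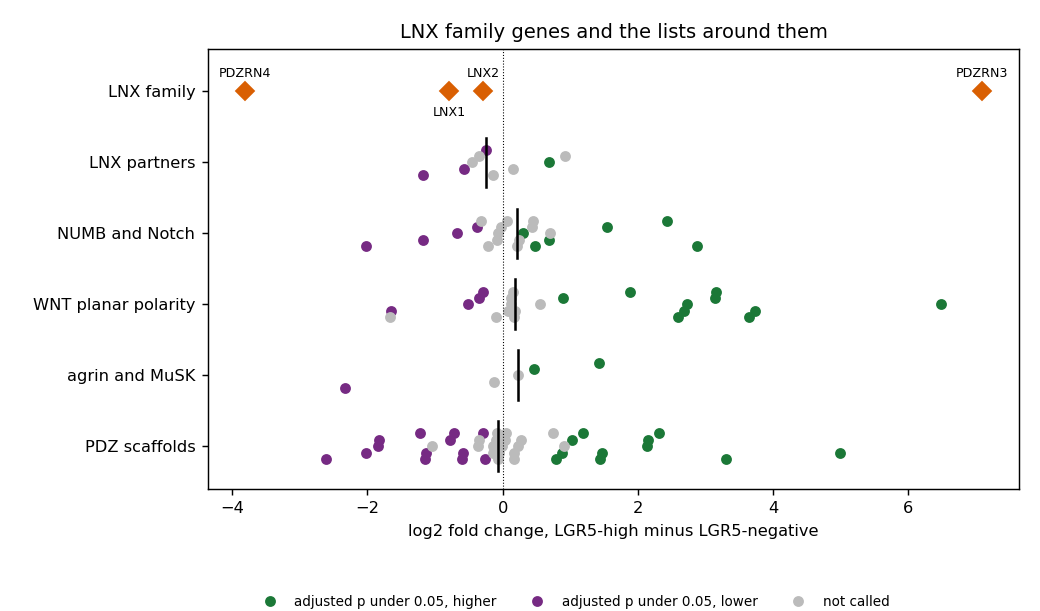
Log2 fold change of LGR5-high over LGR5-negative for the 4 LNX family genes (orange diamonds, not tested) and for the tested genes of 5 lists, green where called higher, purple where called lower (adjusted p under 0.05) and grey where not called, with a black line at each list's median. PDZRN3 is at 7.09 and PDZRN4 at -3.81, and the medians of the lists lie between -0.24 and 0.23.

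The genes whose profile over the 4 libraries was nearest to each of the 2 opposite ligases were found by the Euclidean distance between log2 CPM values, each gene centred on its own mean. For PDZRN3 they were CACNA1A, a calcium channel subunit, at a distance of 0.168, CLSTN3, a calsyntenin, at 0.201, SLC1A4, a neutral amino acid transporter, at 0.208, LOC102166005 at 0.248 and ISM1, a secreted protein, at 0.300. CACNA1A had 3614 and 3771 counts in LGR5-high and 21 and 26 in LGR5-negative. SLC1A4 had 12842 and 9551 counts against 64 and 77. LOC102166005 had 321 and 322 counts in LGR5-high and 0 in both LGR5-negative libraries, at least 93.4-fold higher in LGR5-high when 3 counts per library are taken as the floor. Its level in LGR5-negative was set by the prior count, so its distance and its place among the nearest genes were not measured.

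For PDZRN4 the nearest were TGM3, the transglutaminase that cross-links proteins in differentiated epidermis and hair, at a distance of 0.174, then BRINP1 at 0.368, the BMP family ligand BMP3 at 0.386, GDPD2, a phosphodiesterase, at 0.401 and SLA-DRB1, a class II histocompatibility gene of the pig, at 0.415. TGM3 had 29165 and 21666 counts in LGR5-negative of pigs 88R and 95R and 2918 and 1801 in LGR5-high, with 870 and 69.7 mean CPM. Like PDZRN4, TGM3 and the other nearest genes all had fewer counts in pig 95R in both populations. They were chosen by their likeness to the PDZRN4 profile, so this is not a separate result. SLA-DRB1 had 574 and 527 counts against 47 and 24, with a log2 fold change of -3.82 within 88R and -4.47 within 95R. The 4 libraries of each profile are few, and the distances are a description.

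**Figure D4:**
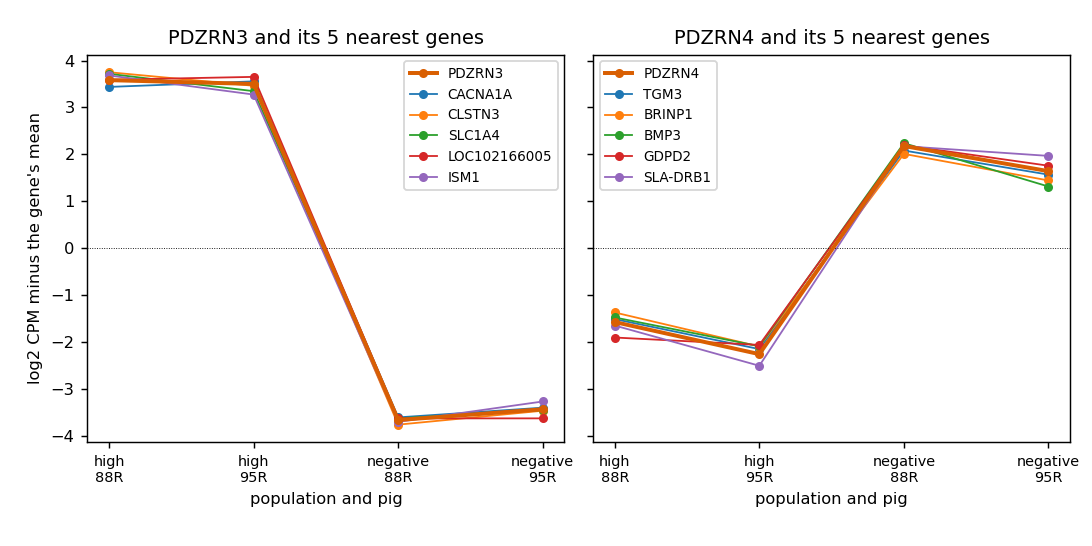
Log2 CPM minus each gene's own mean in the 4 libraries, for PDZRN3 (left) and PDZRN4 (right) in thick orange and the 5 genes nearest to each in thin lines. The PDZRN3 profiles fall from LGR5-high to LGR5-negative, and the PDZRN4 profiles rise, with pig 88R above pig 95R for PDZRN4 itself in both populations.

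The genes annotated beside the 4 ligases in RefSeq (assembly Sscrofa11.1) were read as well. Both neighbours of PDZRN3, LOC110256274 and LOC106505322, had at most 2 counts in any library, so no gene beside PDZRN3 could be compared with it. Of the neighbours of PDZRN4, LOC110260762 had at most 1 count. LOC102166536, a long non-coding RNA that overlaps PDZRN4, had 51 and 37 counts in LGR5-negative and 7 and 6 in LGR5-high. It fell with PDZRN4, by a log2 fold change of -2.94 (standard error 0.430, adjusted p = 0.00340 by edgeR's quasi-likelihood test). Since the strand setting of the counting is not given in the sources used here, the reads of overlapping genes cannot be told apart, and these values are uncertain. The counts of this RNA were at most 51 beside 5718 for PDZRN4 in the same library.

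LNX1 overlaps FIP1L1, a polyadenylation factor gene, which had 1710 to 2057 counts and a log2 fold change of 0.02 (adjusted p = 0.865 by edgeR), and the 11 to 24 counts of LNX1 carry the same uncertainty. CHIC2, on the other side of LNX1, stood at 0.10 (adjusted p = 0.439 by edgeR). LNX2 overlaps the long non-coding RNA LOC110255797, which had 8 to 14 counts and stood at -0.32 (adjusted p = 0.642 by edgeR). POLR1D, an RNA polymerase subunit gene beside LNX2, fell by 0.73 on the log2 scale (standard error 0.167, adjusted p = 0.0163 by edgeR).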

How the data were processed

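Poly(A) RNA of 2 LGR5-high and 2 LGR5-negative libraries (pigs 88R and 95R, as labelled) was used. The authors deposited raw read counts per gene symbol. The submitters' processing notes name Trimmomatic 0.36, STAR 2.5.2b and featureCounts of Subread 1.5.2. The genome build, annotation and strand setting are not given in the sources used here, so no coordinates are printed. An entry without a name held 0.36% to 0.626% of each library's counts and was left out. All 29837 gene names matched a RefSeq symbol (Sscrofa11.1), which was used for names and neighbours only.

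Counts were analysed in R 4.3.3 with edgeR 4.0.16: filterByExpr (minimum count 10, minimum total 15), TMM, and the quasi-likelihood test (2-sided, Benjamini-Hochberg over 15980 genes, adjusted p under 0.05), tested on simulated data beforehand. The study names a t-test on these libraries, which shares no estimate of spread across genes and was kept as an alternative. Fold changes within a pig and profile distances used log2 CPM with a prior count of 2. Libraries of the same pig deviated together (correlation 0.37 over genes), and the pig is shared by the labels, so the pig was fitted as a replicate block as the alternative. Other alternatives were DESeq2 size factors, library size only, 2 other filters, DESeq2 1.42.0, limma-voom (limma 3.58.1), Student's t-test on log2(CPM + 1) and leaving out each library. Plots used matplotlib 3.10.9.

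The 4 genes and the gene lists were chosen with earlier results of these data known. The text names the 4 genes, LGR5, all partners, the 3 called genes with the largest increase and the 3 with the largest decrease of each other list, the 5 nearest profiles, 1 neighbour on each side, and markers beside results that they move with. It also names AGRN, and other WNT polarity genes beside WNT5B and PRICKLE3. Totals of 30890232 to 32598670 counts set the precision. Intervals and floors of 3 counts cover counting error only, since PCR copies are not independent molecules. In the main fit, p-values measure the spread between 2 pigs. With the pig in the model, they measure the spread left after pig and population are fitted.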

Additional observations from a re-analysis of the deposited data

How the results depend on the processing

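No alternative changed the direction of a fold change between the populations of the 4 ligases. Library size only moved values with the median of all genes, giving 5473 higher and 2326 lower genes (share higher 70.2% in place of 50.9%), PDZRN3 at 7.32, PDZRN4 at -3.59, LNX2 at -0.064, 3 partners higher, 2 WNT polarity genes lower, medians of -0.016 (partners), 0.44 (Notch), 0.41 (WNT polarity), 0.45 (agrin) and 0.16 (PDZ scaffolds), and ERBB2 at 0.080. With all genes of at least 1 count, 1 agrin gene was higher (median 0.29), and with at least 10 counts in every library that median was 0.37. DESeq2 and limma-voom called 2 partners higher. A replicate block for the pig gave 4562 higher and 4342 lower genes and 2 partners higher, and this pairing moved no other count of the 5 pathway lists by over 1.5 times, while 1 melanocyte marker became higher. Under the block, the pig difference of LNX1 turned to -0.00087 with all genes of at least 1 count and to -0.034 in DESeq2, and that of PDZRN3 to -0.039 in limma-voom, none of them past the threshold.

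Student's t-test called 544 genes higher and 502 lower, 1 and 1 of Notch, 2 and 5 of the PDZ scaffolds, 5 WNT polarity genes higher and 0 lower (3 lower at an unadjusted p under 0.05, 4 adjusted in edgeR), 0 and 0 partners (1 and 2 unadjusted, 1 and 3 in edgeR) and 0 agrin genes higher (0 unadjusted, 2 in edgeR). Leaving out each library gave 2279 to 3169 higher and 2139 to 3004 lower genes, PDZRN4 from -4.21 to -3.51, 1 to 2 partners higher and 1 to 3 lower, 2 to 4 Notch and 2 to 3 WNT polarity genes lower, 0 to 2 agrin genes higher (1 unadjusted where edgeR gave 0, without LGR5-high of pig 95R), medians of 0.13 to 0.19 (Notch), 0.16 to 0.37 (WNT polarity), 0.15 to 0.29 (agrin) and -0.096 to 0.022 (PDZ scaffolds), FIP1L1 from -0.035 to 0.060 and LOC110255797 from -0.80 to 0.037. These fits have 1 library fewer, and the cause of the other changes was not tested. Leaving out a library was not run for the pig difference, which then has no residual degree of freedom. Depth limits LNX1 most, at 11 to 24 counts.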
